A study of Mus musculus with 6 samples.

Results

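The genes described here are the 4 Id genes (Id1, Id2, Id3 and Id4) and 6 of the Smads (Smad1, Smad2, Smad3, Smad6, Smad7 and Smad9). They were taken by symbol from the deposited table, which listed 34745 genes, and each of the 10 occurred on 1 row. The libraries came from WT primary mouse renal fibroblasts, connective tissue cells that had been cultured from digested kidney. In 3 libraries the fibroblasts had been cultured alone. In the other 3 they had been cocultured with Th17 cells, helper T cells that secrete interleukin-17, for 24 h. In coculture the fibroblasts adhered for 6 h before a 0.4 μm insert carrying the Th17 cells was placed above them, so the cells shared medium without contact, and only the fibroblasts were collected. The Th17 cells had been induced from CD4+ T cells with antibodies to CD3 and CD28, cytokines (IL-1β, IL-6 and IL-23) and an antibody that blocks interferon gamma. The study's methods name Balb/c mice, without tying this strain to the fibroblasts. Age, the number of mice and whether the libraries of a group were separate cultures were not stated for these cells, nor was what stood above the lone fibroblasts. The SD, SE and p below therefore describe the spread between these libraries.

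Smads carry signals of the transforming growth factor beta (TGF-β) family from receptors on the cell surface to the nucleus. Receptors for bone morphogenetic proteins (BMPs) phosphorylate Smad1, Smad5 and Smad9, and receptors for TGF-β and activins phosphorylate Smad2 and Smad3. Both sets bind Smad4 and enter the nucleus, where Smad6 and Smad7, the inhibitory Smads, are among their targets and feed back on the receptors. Id genes are early targets of the BMP Smads. Id proteins have a helix-loop-helix domain but no DNA-binding region, and they hold E proteins (Tcf3, Tcf4 and Tcf12) away from DNA. In kidney fibroblasts Smad3 is known for driving collagen genes, and the BMP branch is often described as its counterweight. Phosphorylation, which turns Smads on, cannot be seen in RNA.

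In both groups the cells carried the fibroblast markers, all 12 of which were detected. Their summed level was between 38800 and 40600 CPM (library-size-scaled counts with TMM factors) alone and between 17200 and 19400 CPM in coculture. Much of this sum is collagen, with Col1a1, Col1a2 and Col3a1 at −1.27, −1.43 and −2.18 on the log2 scale, coculture over alone. The markers did not move alike, as Pdgfra was at −0.35, Postn at −0.04 and Dcn at 1.5. Markers of other cells were low, and their sums moved with the groups. The 10 macrophage markers summed to between 57.5 and 60.6 CPM alone and between 19.9 and 21.1 CPM in coculture. The macrophage gene Adgre1 went from 71, 47 and 55 counts to 0 in each cocultured library. Cd14, in the same list, had 151, 140 and 127 counts alone and 129, 140 and 170 in coculture. The 10 epithelial markers went from between 22.2 and 23.8 CPM to between 7.83 and 9.11 CPM, with Umod at 0 in every library. Krt19 fell from 198, 171 and 203 counts to 33, 39 and 25, whereas Aqp1 went from 41, 38 and 32 to 53, 58 and 56. The 13 T cell markers went from between 9.31 and 11.6 CPM to between 5.02 and 6.02 CPM, with Cd3d, Cd2, Il17a and Il17f at 0 in every library. Lck fell from 49, 68 and 59 counts to 33, 34 and 23. Trac had 20, 40 and 38 counts alone and 41, 27 and 38 in coculture, and Cd3e had 6 in cocultured replicate 3. The 12 endothelial markers summed to between 123 and 131 CPM alone and between 272 and 309 CPM in coculture, most of it Flt1. Tie1, Emcn, Erg and Cldn5 were at 0 in every library. Flt1 rose from 1453, 1533 and 1383 counts to 4067, 3857 and 3513, whereas Kdr fell from 65, 74 and 68 counts to 2, 1 and 2. Pecam1 and Egfl7 differed by only 0.1 and 0.17 on the log2 scale. The part of these cells in the results below was not tested. Total counts were between 12050529 and 13209581 per library, at which a floor of 3 counts was between 0.223 and 0.254 CPM. In bulk RNA, fewer cells of a type and less RNA per cell cannot be told apart.

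The comparison asked how the transcripts of the Smad branches and of their Id targets changed in the presence of Th17 cells. All 10 genes had enough counts to be tested. With Th17 cells Smad9, Smad7, Id2, Id4 and Smad2 were higher and Smad3 was lower, whereas Id1, Id3, Smad1 and Smad6 did not pass an adjusted p of 0.05 (quasi-likelihood test in edgeR, p adjusted over all genes by Benjamini-Hochberg). Thus 6 of the 10 passed, where 37.1% of the 13088 genes tested did. The 5 that were higher stand beside 17.1% of all genes tested, and the 1 that was lower beside 20%. Smad9 alone also had a fold change above 2, the limit used in the study's methods, which 11.6% of all genes passed, 3.87% in the higher and 7.78% in the lower direction. The 6 members that passed were also those whose lone and cocultured libraries had separate CPM ranges, a property of 50.4% of all genes tested. The median log2 fold change was 0.28 over the members and 0.004 over all genes tested.

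**Figure D1:**
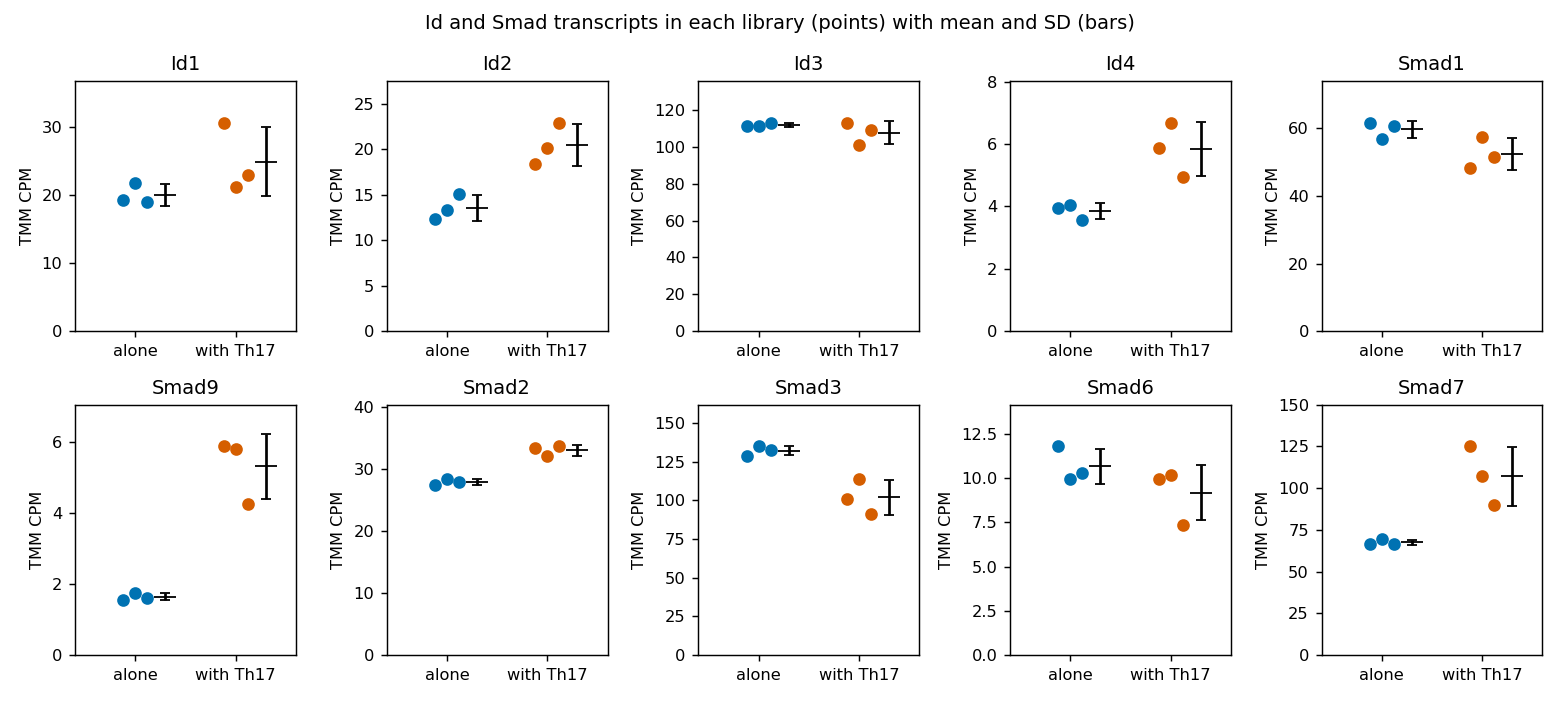
TMM-normalised CPM (vertical axes, linear and starting at 0) of the 10 genes in the 3 libraries of lone fibroblasts (blue) and the 3 of fibroblasts cocultured with Th17 cells (orange), with the mean and SD in black. Smad9 stood between 1.55 and 1.74 CPM alone and between 4.26 and 5.87 CPM in coculture, whereas the points of Id1, Id3, Smad1 and Smad6 overlapped between the groups.

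Sequence before the RefSeq starts of these genes was read to show what could be searched for BMP Smad motifs. RefSeq windows (GRCm38.p6) of 250 bases before the start were read for 7 members, and those of Id1, Smad2 and Smad7 were not read. The RefSeq starts differ from those of the deposited table for Id3, Id4 and Smad1. The palindrome GGCGCC is a GC-rich element that BMP Smads can bind and that reads alike on both strands. It occurred in 3 of the 7 windows, those of Smad9, Id2 and Id4, which were higher in coculture. Smad2 and Smad7 were also higher but were left out, so the higher members are covered only in part. Whether the motif goes with the direction of change was not tested. GGCGCC was absent from the windows of Id3, Smad1, Smad3 and Smad6. This is a description of few windows. GGCGCC is in 9.59% of all windows of that length. Counted per gene, with a match in any of its windows, it is in 20.3% of the genes tested here that have a window. That share is 21.1% for genes higher in coculture, 19.1% for genes lower and 20.5% for the rest. The share per window and the share per gene are unlike measures. The motif starts 51 bases before the RefSeq start of Smad9, 231 before that of Id2 and 148 before that of Id4. The shorter Smad box GTCT, on either strand, was in 82.9% of all windows. The windows of Smad9 (chr3:54755332-54755581, plus strand), Id4 (chr13:48260866-48261115, plus strand) and the part of that of Id2 outside annotated exons (chr12:25096254-25096342, minus strand) are given with GGCGCC in capitals. Those of Smad3 (chr9:63757995-63758244, minus strand) and Smad6 (chr9:64022060-64022309, minus strand) are given as windows without it. A match is not a binding site, and its absence says only that these letters are not in the window.
Smad9: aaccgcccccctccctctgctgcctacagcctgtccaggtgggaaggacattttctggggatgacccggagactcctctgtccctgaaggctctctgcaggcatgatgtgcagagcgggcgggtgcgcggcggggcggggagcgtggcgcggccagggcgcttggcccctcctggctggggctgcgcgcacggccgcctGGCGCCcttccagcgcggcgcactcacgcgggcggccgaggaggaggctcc
Id2: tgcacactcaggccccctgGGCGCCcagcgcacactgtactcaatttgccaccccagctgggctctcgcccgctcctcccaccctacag
Id4: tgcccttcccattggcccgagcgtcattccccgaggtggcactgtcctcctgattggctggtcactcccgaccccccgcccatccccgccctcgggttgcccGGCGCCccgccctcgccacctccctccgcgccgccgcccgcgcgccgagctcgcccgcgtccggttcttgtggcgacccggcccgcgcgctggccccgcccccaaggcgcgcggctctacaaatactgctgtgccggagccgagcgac
Smad3: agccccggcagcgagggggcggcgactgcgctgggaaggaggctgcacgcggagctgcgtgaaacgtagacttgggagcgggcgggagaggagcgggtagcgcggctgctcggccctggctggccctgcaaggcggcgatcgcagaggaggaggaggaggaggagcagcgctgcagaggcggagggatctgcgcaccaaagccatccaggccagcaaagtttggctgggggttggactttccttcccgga
Smad6: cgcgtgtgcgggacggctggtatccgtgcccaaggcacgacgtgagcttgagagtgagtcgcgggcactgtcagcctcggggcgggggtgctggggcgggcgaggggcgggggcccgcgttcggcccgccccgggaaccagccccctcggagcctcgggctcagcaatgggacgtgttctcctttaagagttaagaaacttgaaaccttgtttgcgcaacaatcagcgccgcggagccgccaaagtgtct

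Among the BMP Smads, Smad9 showed a marked increase and Smad1 did not pass the test. Smad9 (ENSMUSG00000027796, GRCm38 chromosome 3, 54755582 to 54801257, protein-coding), historically called Smad8, is the least studied transducer of BMP receptors. Its counts were 20, 22 and 19 alone against 79, 74 and 56 in coculture, or 1.55, 1.74 and 1.61 CPM alone and 5.87, 5.81 and 4.26 CPM with Th17 cells. Every cocultured library was above every lone one, and cocultured replicate 3 was the lowest of its group. The fold change was 3.24 (95% interval from 2.3 to 4.57). On the log2 scale the difference was 1.70 with an SE of 0.219 (edgeR adjusted p = 0.000312), which placed Smad9 at rank 213 of the genes tested. It was also past a test against a fold change of 2 itself (glmTreat, edgeR adjusted p = 0.0235). On log2(FPKM + 1), which shrinks the change of low genes, limma gave a difference of 0.63.

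Smad1 (ENSMUSG00000031681, chromosome 8, 79338395 to 79399518) is a main transducer of BMP receptors. It measured 61.7, 57.0 and 60.6 CPM alone and 48.3, 57.4 and 51.6 CPM in coculture. Cocultured replicate 2 lay inside the range of the lone libraries, and the other two cocultured libraries lay below it. The log2 fold change was −0.19, with a 95% interval from −0.38 to 0.0022 (SE 0.0843, edgeR adjusted p = 0.112). Without cocultured replicate 2 it was −0.26 and passed the test (edgeR adjusted p = 0.0448). Smad5, the remaining BMP transducer, measured 58.2 ± 8.89 CPM alone and 60.4 ± 2.46 CPM in coculture (SD, n = 3 each), with a log2 difference of 0.05 and an SE of 0.108 (edgeR adjusted p = 0.737).

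The Smads of the TGF-β and activin branch went in opposite directions. Smad3 (ENSMUSG00000032402, chromosome 9, 63646767 to 63757994) binds DNA directly and mediates much of the collagen response to TGF-β. It measured 129, 135 and 133 CPM alone and 101, 114 and 91.2 CPM in coculture. No cocultured library reached the lone ones. Smad3 decreased to a fold of 0.771 (95% interval from 0.676 to 0.878), with a log2 difference of −0.38 and an SE of 0.0833 (edgeR adjusted p = 0.00675). Smad2 (ENSMUSG00000024563, chromosome 18, 76241580 to 76305731), which shares receptors and Smad4 with Smad3, measured 27.4, 28.3 and 27.9 CPM alone and 33.4, 32.0 and 33.6 CPM in coculture. The increase was small but the groups did not overlap. The fold change was 1.18 (95% interval from 1.05 to 1.34), with a log2 difference of 0.24 and an SE of 0.0788 (edgeR adjusted p = 0.0374). The call on Smad2 was lost without any single lone library (edgeR adjusted p = 0.112, 0.0875 and 0.106 without replicates 1, 2 and 3), without cocultured replicate 1 (0.0832) or 3 (0.0566), with the replicate number as a block (0.0771), with no filter on low counts (0.069) and with DESeq2 (0.11). Smad4, the partner of both branches, measured 101 ± 10.6 CPM alone and 102 ± 4.14 CPM in coculture (SD, n = 3 each), with a log2 difference of 0.01 and an SE of 0.0854 (edgeR adjusted p = 0.934).

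Of the inhibitory Smads, Smad7 rose and Smad6 did not pass the test. Smad7 (ENSMUSG00000025880, chromosome 18, 75367529 to 75395935) binds receptors of both branches and brings ubiquitin ligases to them. It measured 66.7, 69.4 and 66.7 CPM alone and 125, 107 and 89.7 CPM in coculture. The lone libraries lay close together and the cocultured ones were spread out, all of them above. The fold change was 1.58 (95% interval from 1.33 to 1.89), with a log2 difference of 0.66 and an SE of 0.111 (edgeR adjusted p = 0.00142). Smad6 (ENSMUSG00000036867, chromosome 9, 63953076 to 64022059), which acts mainly on the BMP branch and is itself a classical BMP target, measured 11.8, 9.95 and 10.3 CPM alone and 9.96, 10.2 and 7.38 CPM in coculture. The values overlapped, and cocultured replicate 3 was the lowest of the 6 libraries. The log2 fold change was −0.22, with a 95% interval from −0.58 to 0.14 (SE 0.158, edgeR adjusted p = 0.315), and it was −0.08 without cocultured replicate 3.

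Of the Id genes, Id2 and Id4 were higher, and Id1 and Id3 did not pass the test. Id2 (ENSMUSG00000020644, chromosome 12, 25093801 to 25096092), a regulator of lymphoid and mesenchymal differentiation, measured 12.3, 13.3 and 15.1 CPM alone and 18.4, 20.1 and 22.9 CPM in coculture. All cocultured libraries were above the lone ones. The fold change was 1.51 (95% interval from 1.24 to 1.84), with a log2 difference of 0.59 and an SE of 0.126 (edgeR adjusted p = 0.00556). Id4 (ENSMUSG00000021379, chromosome 13, 48261427 to 48264036), best known from neural and mammary tissue, was scarce, with 51, 51 and 42 counts alone and 79, 85 and 65 counts in coculture. This was 3.96, 4.03 and 3.55 CPM against 5.87, 6.68 and 4.94 CPM, again without overlap. The fold change was 1.51 (95% interval from 1.14 to 2.01), with a log2 difference of 0.60 and an SE of 0.18 (edgeR adjusted p = 0.0279). The call on Id4 was lost without any single lone library (edgeR adjusted p = 0.063, 0.0571 and 0.0864 without replicates 1, 2 and 3), without cocultured replicate 1 (0.0644) or 2 (0.0922) and with DESeq2 (0.0759). Id4 shares 82 exon bases with A330033J07Rik on the opposite strand, which had at most 1 count in a library, and 171 with Gm49291, which was not analysed here. Whether counting used strand was not stated, so reads within these shared bases cannot be assigned to one gene. The exons of Id4 together cover 3849 bases.

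Id1 and Id3 are the members of the family most often used as readouts of BMP signalling. Id1 (ENSMUSG00000042745, chromosome 2, 152736251 to 152737410) measured 19.2, 21.8 and 19.0 CPM alone and 30.6, 21.1 and 23.0 CPM in coculture. Cocultured replicate 1 stood above the other 5 libraries, and replicate 2 lay inside the lone range. The log2 fold change was 0.31, with a 95% interval from −0.017 to 0.65 (SE 0.146, edgeR adjusted p = 0.126), and 0.14 without cocultured replicate 1. Id3 (ENSMUSG00000007872, chromosome 4, 136143497 to 136145755) measured 111, 111 and 113 CPM alone and 113, 101 and 109 CPM in coculture. The log2 fold change of −0.05 had a 95% interval from −0.20 to 0.098 (SE 0.0659, edgeR adjusted p = 0.585), which lies below the estimates for Id2 and Id4. Its sign turned under library size as the only scaling and under limma on log2(FPKM + 1), at 0.01 in each.

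**Figure D2:**
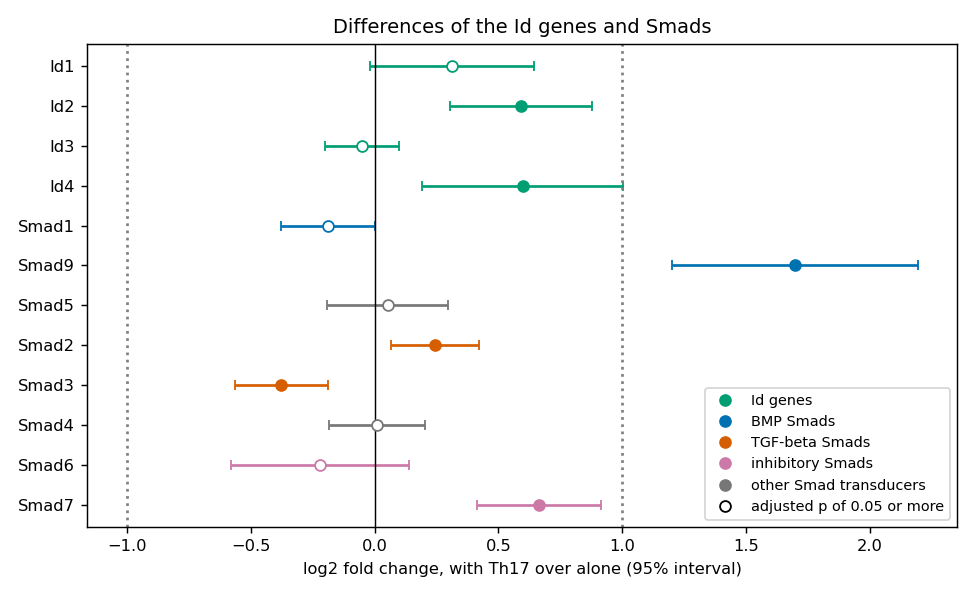
Log2 fold change of each gene, cocultured over alone (horizontal axis), with its 95% interval from edgeR. Filled points passed an adjusted p of 0.05, and dotted lines mark a fold change of 2. Smad9 at 1.70 lies past the dotted line, Smad3 at −0.38 is the filled point on the left, and the intervals of Id1, Id3, Smad1, Smad5, Smad4 and Smad6 reach over 0.

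By role, then, the BMP Smads had a median log2 fold change of 0.75, the middle of 1.70 and −0.19, the TGF-β Smads −0.07, the inhibitory Smads 0.22 and the Id genes 0.45. The pairs were therefore also set against each other inside each library, where the scaling between libraries drops out. These ratios and shares are descriptions without a test. Levels between genes were compared per length, as the FPKM (fragment counts scaled by gene length and library total) that the authors deposited. The ratio of Smad3 to Smad2 FPKM was 4.31, 4.37 and 4.36 alone and 2.77, 3.25 and 2.48 in coculture. The ratio of Smad7 to Smad6 FPKM was 2.58, 3.18 and 2.95 alone and 5.72, 4.78 and 5.55 in coculture. Neither ratio overlapped between the groups. Smad9 made up 1.89%, 2.37% and 2.15% of the summed FPKM of Smad1, Smad5 and Smad9 alone and 8.08%, 7.36% and 5.87% in coculture. Even after its rise it was the minor BMP transducer in every library.

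**Figure D3:**
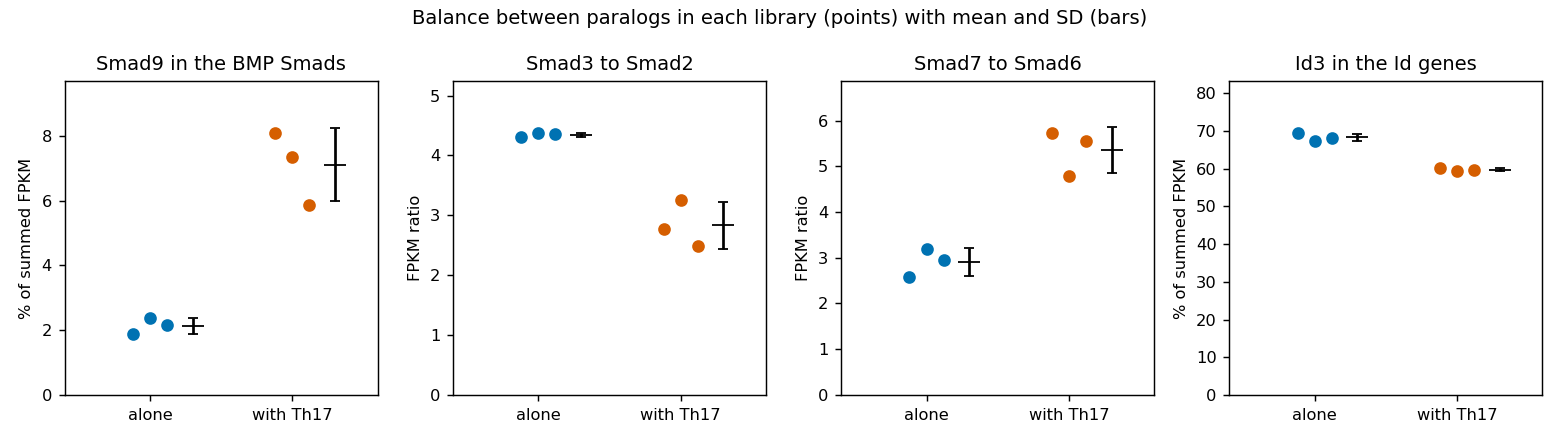
Share or ratio of deposited FPKM between related genes (vertical axes, linear and starting at 0) in the 3 lone (blue) and 3 cocultured (orange) libraries, with mean and SD in black. The Smad9 share went from between 1.89% and 2.37% to between 5.87% and 8.08%, Smad3 to Smad2 fell, Smad7 to Smad6 rose, and the share of Id3 was lower in the cocultured libraries.

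Summed over each role, the inhibitory Smads went from 11.5 ± 0.168 to 16.8 ± 2.66 FPKM (SD, n = 3 each) and the TGF-β Smads from 27.7 ± 0.646 to 24.6 ± 1.67 FPKM, without overlap, while the BMP Smads Smad1 and Smad9 stood at 9.93 ± 0.376 and 9.84 ± 0.761 FPKM. The ratio of inhibitory Smads to the receptor-activated members (Smad1, Smad2, Smad3 and Smad9, without Smad5) was 0.314, 0.306 and 0.298 alone and 0.575, 0.459 and 0.433 in coculture. The ratio of TGF-β to BMP Smads, with Smad5 counted among the latter, was 1.81, 2.11 and 2.05 alone and 1.77, 1.76 and 1.65 in coculture. Here the lowest lone library lay just above the highest cocultured one. Id3 held 69.4%, 67.4% and 68.1% of the summed Id FPKM alone and 60.2%, 59.4% and 59.8% in coculture.

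In lone fibroblasts the order of FPKM ran from Id3 (47.6 ± 0.811, SD, n = 3) and Smad3 (22.6 ± 0.556) through Id2 (10.5 ± 1.12), Smad1 (9.63 ± 0.393), Id1 (9.35 ± 0.715) and Smad7 (8.56 ± 0.198) to Smad2 (5.19 ± 0.0906), Smad6 (2.96 ± 0.265), Id4 (2.27 ± 0.146) and Smad9 (0.297 ± 0.0175). The libraries of Id2 and Smad1, and of Smad1 and Id1, overlapped, and all other neighbours were apart. In coculture Id3 (48.1 ± 3.14) stayed on top, followed by Smad3 (18.2 ± 1.88), Id2 (16.5 ± 1.88), Smad7 (14.2 ± 2.29) and Id1 (12.2 ± 2.46), each of which overlapped the next. Below them were Smad1 (8.83 ± 0.735), Smad2 (6.43 ± 0.213), Id4 (3.59 ± 0.511), Smad6 (2.66 ± 0.441) and Smad9 (1.01 ± 0.169), each apart from its neighbours. The order in the middle depended on gene length. The deposited FPKM divided Id1 counts by 2094 bases, the sum of its GENCODE M21 transcripts, although its exons together cover 1160 bases. It divided Id2 counts by 1270 bases, where the exons cover 2438. Per kilobase of exon union, a scale added after the data had been seen, Id1 (17.3 ± 1.33 CPM per kb alone) stood above Smad7 (15.0 ± 0.351), Smad1 (9.55 ± 0.39) and Id2 (5.58 ± 0.58), and in coculture Smad7 (23.7 ± 3.88) had the second highest mean after Id3, with libraries that overlapped those of Id1 (21.4 ± 4.32). Id3 stayed highest and Smad9 lowest on both scales. The ratios inside a library shift in level but not in direction, for instance from 7.51 ± 0.0554 to 4.9 ± 0.671 for Smad3 to Smad2 on exon union.

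The genes around the members were taken from 10 lists with 102 genes, and 80 of them had enough counts for the test. In coculture 13 of the 80 passed as higher, beside 17.1% of all genes tested, and 27 as lower, beside 20%. The median log2 fold change of the 80 was −0.03. The BMP and TGF-β inputs moved in both directions. Among BMP ligands and receptors, 3 of 10 tested genes were higher and 4 lower (median −0.03). Bmp2, a ligand that acts through the BMP Smads, rose by 1.79 on the log2 scale (edgeR adjusted p = 5.43e-05) and the type II receptor Acvr2a 0.64, whereas the ligands Bmp4 and Bmp6 fell by 4.57 and 1.53 on the log2 scale. Among extracellular and membrane antagonists and modulators of BMPs, 3 of 9 were higher and 5 lower (median −0.22). Grem1 was at 4.02, Nog at 1.91, Chrd at −1.81 and Bmper at −1.68. Among ligands and receptors of the TGF-β and activin branch, 2 of 11 were higher and 4 lower (median −0.07). Gdf11 was at 1.34 and Inhbb, an activin subunit, at 0.99, Tgfb2 was at −1.85 and Tgfb3 at −1.20, and Tgfb1 measured 0.05 (edgeR adjusted p = 0.596).

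Among 19 regulators that act on Smads directly, 3 were higher and 4 lower (median log2 fold change 0.06). Usp15, a deubiquitinase of the pathway, was at 0.31 and Zfyve9, which presents Smad2 and Smad3 to the receptor, at 0.29. Ldlrad4, which keeps Smad2 and Smad3 from that presentation, measured 33.0 ± 2.95 CPM alone and 12.3 ± 1.73 CPM in coculture (SD, n = 3 each). Its log2 difference was −1.42 with an SE of 0.127 (edgeR adjusted p = 2.91e-05), and it was the 1 regulator past a fold change of 2. Ctdsp1, a phosphatase of Smads, was at −0.42. Downstream, 7 of 14 TGF-β and Smad3 target genes passed the test, each of them lower, where 20% of all genes tested passed as lower. The median log2 fold change of the 14 was −0.49, against 0.004 for all genes tested. The lowest were Col1a2 at −1.43 and Col1a1 at −1.27, the chains of type I collagen. These lists were drawn up with earlier results of these data known, so their directions are not independent evidence.

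Of 8 BMP Smad targets other than the members, Atoh8, Msx1 and Runx2 had enough counts to test, and they did not pass (log2 fold changes 0.30, 0.53 and 0.05, edgeR adjusted p = 0.291, 0.0526 and 0.726). These 3 are named after their values were seen. The E proteins that Id proteins bind did not pass either. Tcf3 was at −0.23 (edgeR adjusted p = 0.089), Tcf4 at 0.23 (edgeR adjusted p = 0.132) and Tcf12 at −0.0017 (edgeR adjusted p = 0.994). Of 16 other helix-loop-helix genes 6 were tested, with Twist2, a mesenchymal repressor, higher at 0.62 and Tcf21, a factor of kidney stroma, and the Notch target Hes1 lower at −4.10 and −0.86. Tcf21 had 27, 23 and 21 counts alone and 2, 2 and 0 in coculture. Of the CDK inhibitors under helix-loop-helix control, Cdkn1a was higher by 0.16 and Cdkn2b lower at −0.75.

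**Figure D4:**
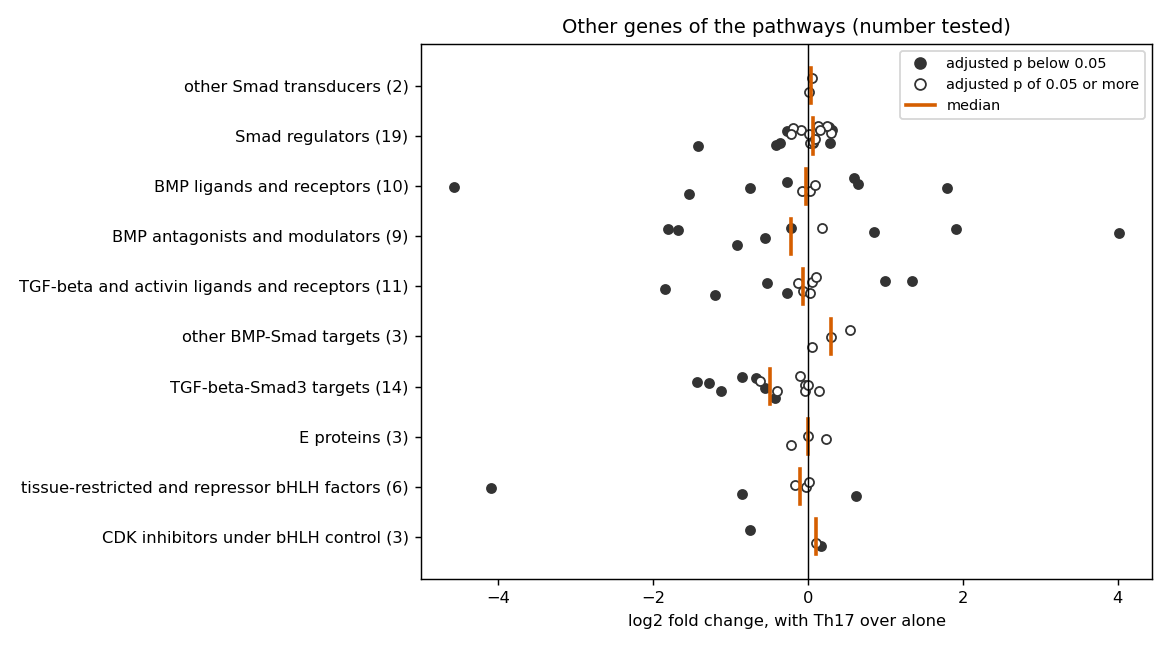
Log2 fold changes, cocultured over alone (horizontal axis), of the 80 tested genes in 10 lists around the Smads and Id proteins (vertical axis, number tested in brackets), with the median of each list as an orange bar and filled points for an adjusted p below 0.05. The lists of BMP ligands and receptors and of BMP antagonists and modulators reach from −4.57 to 4.02. The 19 Smad regulators lie between −1.42 and 0.31 and the 3 E proteins between −0.23 and 0.23.

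The pattern of Smad9 over the 6 libraries was most like those of Kif1c, Nuak1 and Got2, each with a Pearson r of 0.999 on log2 CPM. The 6 points are the same libraries in 2 groups, so a high r mostly repeats the difference between the groups. Smad1, Smad5 and Smad9, and likewise Smad2 and Smad3, have similar coding sequences. How fragments that match several genes were counted was not stated, which leaves the split between such pairs uncertain.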

How the data were processed

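RNA-sequencing was performed on 6 libraries, 3 per group, and groups and replicate numbers were taken from the sample titles. Per the study's methods and the submitters' processing notes, reads passed a Seqtk filter and the authors then mapped them to mm10 with HISAT2 2.0.4 and counted fragments per gene with StringTie 1.3.3b. The deposited table holds raw fragment counts and FPKM for each library. In all 12102 genes with at least 10 counts in every library, FPKM, count and library total gave 1 gene length within 1%, so the deposited FPKM carry no TMM factor. This length exceeded the GENCODE M21 exon union by over 1% in 70.3% of 12072 genes. Of the deposited gene identifiers 34267 occur in GENCODE M21 (GRCm38), and 99.9% of these overlap their position there.

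The count test was edgeR 4.0.16 in R 4.3.3 (filterByExpr with a minimum count of 10, TMM, glmQLFit, glmQLFTest, Benjamini-Hochberg adjustment over 13088 genes). A gene passed at an adjusted p below 0.05. Alternatives used DESeq2 1.42.0 and limma 3.58.1 (pseudocount 1). On counts simulated for this comparison in 13088 genes, with 200 changed by 1.5 on the log2 scale, edgeR recovered 99.5% and called 11 unchanged genes. The simulation gave all genes a common dispersion of 0.0136. Apart from Smad9, the members differed by less than 1.5, and recovery of such smaller changes was not tested. Intervals and floors cover counting error and library spread only. Figures were drawn with matplotlib 3.10.9.

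The members and lists were chosen with earlier results of these data known. Named genes are the members, Smad4, Smad5, Bmp2, Bmp4, Tgfb1, the E proteins, the 2 highest and 2 lowest log2 fold changes past the test in each list (mean count of at least 20 where higher), and the 3 genes most like a member past a fold change of 2. Replicate numbers were not used as pairs in the main fit. Whether same-numbered libraries shared a preparation was not stated.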

Additional observations from a re-analysis of the deposited data

How the results depend on the processing

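Under 14 alternative fits, the 10 members gave 140 log2 fold changes, of which 123 kept direction and side of the threshold. Id1, Id2, Id3, Smad3, Smad6, Smad7 and Smad9 crossed the threshold in none of them, while Id4 lost its call in 6 and Smad2 in 8, and Smad1 gained one in 1. Id3 turned from −0.05 to 0.01 when only library size was scaled and, likewise, on limma's log2(FPKM + 1) scale (the cause was not tested). With DESeq2, 3 members were higher rather than 5. In the fits that left out 1 library each, between 3 and 4 were higher, between 1 and 2 lower and 1 past a fold change of 2. These fits rest on fewer libraries. With limma on log2(FPKM + 1), 0 members passed a fold change of 2, because the pseudocount shrinks Smad9 (0.63, limma adjusted p = 0.000374), where edgeR and DESeq2 gave 1. The counts of pathway genes, recomputed as an alternative added after the data were seen, stayed between 11 and 16 higher and between 24 and 27 lower. In the order of levels, 2 neighbouring pairs overlapped alone with deposited FPKM and 1 with exon union lengths. Same-numbered libraries did not deviate together (correlations 0.016, −0.026 and −0.004), and the replicate block gave 4 members higher and 1 lower, with Smad2 the call lost. Library size only moved the median of all genes from 0.0038 to 0.067. At this depth Smad9 and Id4 rest on fewer than 100 counts per library.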
